A study of Mus musculus with 4 samples.

Results

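The Cxcl13 stromal cells are a small set of barcodes from mouse gonadal white adipose tissue, chosen by their counts of Cxcl13 and a few further genes. A barcode was kept with over 1000 and under 7000 detected genes and under 8% of its unique molecular identifiers (UMIs, the counted RNA molecules) from mitochondrial genes. A kept barcode was a member with at least 10 UMIs of Cxcl13, at least 1 UMI of Cxcl5, Clca3a2, Serpinb2 or Col24a1, at most 1 UMI of Ptprc (the pan-leukocyte gene CD45) and under 10 UMIs of Mzb1 (a plasma cell gene). These limits selected 284 of 14982 kept barcodes, or 1.90% (exact 95% interval 1.68 to 2.13%). The levels of these 7 genes in the members are therefore a description of the choice. The members carried 614 UMIs of Pdgfra per 1000000 UMIs (CPM, counts scaled to the same total) and 427 CPM of Wt1. Pdgfra is a receptor of stromal progenitors and Wt1 a transcription factor of the mesothelium, and neither gene was used in the rule.

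Cxcl13 encodes a chemokine that draws B cells through the receptor Cxcr5, and it is best known from the follicles of lymphoid organs, where stromal cells and follicular dendritic cells secrete it. Visceral fat holds small lymphoid clusters, and its outer surface is a mesothelium, a sheet of cells that carries both epithelial genes such as Msln and mesenchymal genes such as Wt1. Beneath it lie Pdgfra-positive fibroblasts, which include the adipocyte progenitors. Cdkn2a encodes p16Ink4a, an inhibitor of Cdk4 and Cdk6 that accumulates in senescent cells, and from another first exon p19Arf, which stabilises p53.

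The study sorted cells of the stromal vascular fraction by the surface protein CD45 and by tdTomato, a red fluorescent protein, to compare cells with a history of p16 expression with the rest. All 4 libraries came from gonadal adipose tissue of male mice of 18 months and of the genotype p16-CreERT2/R26-LSL-tdTomato, given tamoxifen, in which a Cre recombinase driven by the p16 promoter removes a stop cassette before tdTomato. CD45- cells and CD45+ cells were each split into Tom+ and Tom- cells, which made 4 groups with 1 library each. No wild-type, young or untreated mice were among these samples, the number of mice pooled per library is not given in the sources used here, and tdTomato records Cre activity at the time of tamoxifen rather than present Cdkn2a. With 1 library per group there is no replicate error and no test between groups, and all intervals are exact 95% intervals for counting error only.

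The libraries held 64083756 to 139397501 UMIs and 1981 to 4818 kept barcodes. The CD45 label did not separate leukocytes: barcodes with B cell genes numbered 158 and 184 in the libraries labelled CD45- and 66 and 261 in those labelled CD45+. Groups are therefore named by their labels. The libraries labelled Tom+ also held far more immunoglobulin RNA in cells that do not make it, and Mzb1, which the rule limits, was among these genes (59.5, 3.65, 37.3 and 4.33 CPM in members and 348, 208, 324 and 184 in B cell barcodes, CD45- pair first and Tom+ before Tom- in each). Of the 284 members, 202 had a barcode sequence that another library also listed, mostly between the 2 libraries labelled Tom-. The copy had a median of 1.92% of the member's own UMIs, 0 barcodes were members in both libraries, and 2 had more UMIs in the other library. Scrublet, a doublet caller, marked 5 of the 284 members.

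Members were found in every library. Among CD45- libraries they numbered 41 of 4145 kept barcodes for Tom+ (0.989%, 0.711 to 1.34%) and 99 of 4038 for Tom- (2.45%, 1.997 to 2.98%). Among CD45+ libraries they numbered 22 of 1981 for Tom+ (1.11%, 0.697 to 1.68%) and 122 of 4818 for Tom- (2.53%, 2.11 to 3.02%). As a share of kept barcodes they were fewer in both libraries labelled Tom+ than in both labelled Tom-, with intervals that did not overlap. The size of this difference depended on the rule and its direction on shared barcodes: with Ptprc and Mzb1 both at 0 the shares were 0.0965 and 1.81% in the CD45- pair and 0.404 and 1.78% in the CD45+ pair, and with all barcodes that another library also listed left out they were 0.635 and 0.882%, and 0.8005 and 0.754%, so the order then held in the CD45- pair alone. Mzb1, on which the rule sets a limit, was higher in both libraries labelled Tom+ in members, mesothelial and progenitor cells. With no limit on Mzb1 the shares were 1.09 and 2.45% in the CD45- pair and 1.11 and 2.53% in the CD45+ pair, Tom+ before Tom-. As a share of stromal barcodes (members plus the 2 comparison groups defined below) the order turned: 10.8% (7.90 to 14.4%) and 12.4% (7.91 to 18.1%) in the libraries labelled Tom+ against 5.10% (4.17 to 6.18%) and 5.80% (4.84 to 6.89%) in those labelled Tom-. The denominators differ because the libraries labelled Tom+ held 378 and 178 stromal barcodes and those labelled Tom- 1940 and 2102. The sort on CD45 and tdTomato bears on both denominators, and the share in the tissue cannot be read from either.

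**Figure D1:**
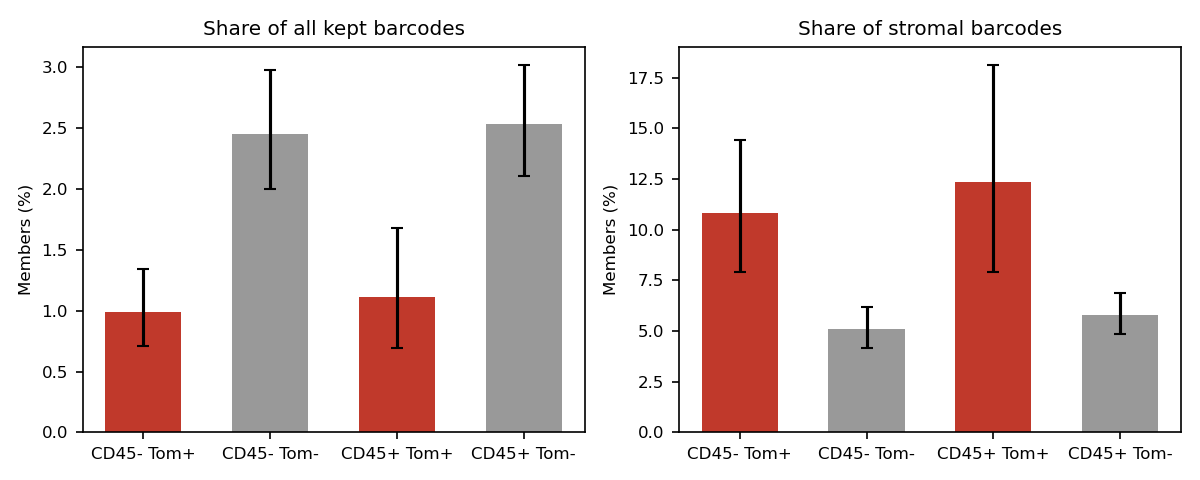
Members in each library as a percent of all kept barcodes and as a percent of stromal barcodes, with exact 95% intervals as bars (counting error only, 1 library per group). Of kept barcodes the members were 0.989 and 1.11% in the libraries labelled Tom+ and 2.45 and 2.53% in those labelled Tom-, and of stromal barcodes 10.8 and 12.4% against 5.10 and 5.80%.

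Of the 444 kept barcodes with at least 10 UMIs of Cxcl13, 284 were members, 75 failed only the limits on Ptprc and Mzb1, 52 lacked only the 4 further genes, and 33 failed both. The limits on Ptprc and Mzb1 alone removed 40 barcodes from CD45- Tom+ and between 7 and 14 from each other library. CD45- Tom+ was also the library with the most Mzb1 in its members, at 59.5 CPM. With the limit on Ptprc kept and none on Mzb1, the members of CD45- Tom+ numbered 45 in place of 41. Those of CD45- Tom-, CD45+ Tom+ and CD45+ Tom- stayed at 99, 22 and 122. By Cxcl13 alone, barcodes with at least 10 UMIs were 2.41% of the kept barcodes for Tom+ and 3.42% for Tom- among CD45- libraries, and 1.92% and 3.49% among CD45+ libraries. Members were deep cells, with a median of 35252 UMIs each against 31394 in mesothelial cells and 23060 in progenitor cells, so a fixed limit of 10 UMIs admits deep cells more readily.

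Cxcl13 itself was spread widely among the members. A member carried 10 to 2440 UMIs of it, with a median of 59.5, and the 28 highest members held 47.1% of all its UMIs. Values by library are given from here on in one order, the CD45- pair and then the CD45+ pair, with Tom+ before Tom- in each. The summed level of Cxcl13 was 2436, 2754, 6551 and 4292 CPM. In B cell barcodes, which should lack Cxcl13, it was 168, 36.2, 239 and 20.02 CPM at a median depth of 6386 UMIs. This summed level was greater in the libraries labelled Tom+ and far below the members in all 4. The share of B cell barcodes with a UMI of Cxcl13 was not greater there, at 6.96, 7.61, 4.55 and 7.66%. At the edge of the rule, the 17 members with 10 to 12 UMIs of Cxcl13 carried 7947 CPM of Saa3 and 25.7 CPM of Cdkn2a (14.4 to 42.4), and the 27 barcodes that met the other limits with 7 to 9 UMIs carried 10432 CPM of Saa3 and 23.9 CPM of Cdkn2a (14.1 to 37.7). The barcodes on either side of the limit thus overlapped in Cdkn2a and were alike in their high Saa3.

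Of the 4 further genes, 249 of the 284 members had a UMI of Cxcl5, 140 of Clca3a2 and 101 of Serpinb2. Cxcl5, a chemokine for neutrophils through Cxcr2, stood at 1013, 704, 913 and 888 CPM. Clca3a2, of the family of chloride channel accessory proteins, stood at 146, 81.2, 50.6 and 94.3 CPM. Serpinb2, the plasminogen activator inhibitor 2, stood at 356, 153, 193 and 257 CPM, and 1 cell gave 57.5% of its UMIs in CD45+ Tom+. Col24a1, a fibrillar collagen, was even across the libraries at 67.7, 59.6, 50.6 and 58.1 CPM.

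The members were set beside 2 stromal populations of the same libraries. Mesothelial cells were 1201 barcodes with under 10 UMIs of Cxcl13 and at least 10 UMIs over Msln, Upk3b, Upk1b, Lrrn4 and Nkain4. Progenitor cells were 3113 barcodes with under 10 UMIs of Cxcl13, under 3 UMIs over those 5 genes, at least 3 UMIs of Pdgfra and at least 10 of Col3a1, and both groups kept the limits on Ptprc and Mzb1. These genes fix part of their own differences, so lists that contain them are also given without them. Genes were compared where their mean over both groups of cells reached 20 CPM, and a gene was counted as higher or lower past 2-fold. Against mesothelial cells 203 of 6130 genes were higher in members (3.31%) and 394 lower (6.43%). Against progenitor cells 342 of 6001 were higher (5.7%) and 502 lower (8.37%). Against both, 63 of 5670 genes were higher (1.11%) and 62 lower (1.09%), and 60 of the 63 and 62 of the 62 lay on the same side in all 4 libraries for both comparisons. The 63 include genes of the rule, whose order is a description of the choice.

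Saa3, an inflammation-induced serum amyloid A apolipoprotein, was the most abundant marker of the members and no part of the rule. It stood at 12905, 9184, 11438 and 11776 CPM in members, at 2774, 2748, 3129 and 3427 in mesothelial cells, and at 271, 403, 342 and 241 in progenitor cells. Every library of the members was above every library of the other cells. Summed over the libraries the log2 ratio was 1.86 (1.84 to 1.87) against mesothelial and 5.14 (5.12 to 5.16) against progenitor cells. B cell barcodes held 1014, 357, 1768 and 43.4 CPM of Saa3, with a UMI in 22.8, 25.0, 18.2 and 28.7% of them.

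The 15 genes that stood highest against both populations, among those at 50 CPM or more, were Cxcl13, Cxcl5, Ngfr, Serpinb2, Gdpd2, Chl1, Gatm, Serpina3g, Npl, Clca3a2, Tgfb2, Ctsc, Kif26b, Saa3 and Csf3. All 15 were higher in members in 4 of 4 libraries against both populations. For Cxcl13, Cxcl5, Serpinb2 and Clca3a2, genes of the rule, this order is a description of the choice. Gatm, the first enzyme of creatine synthesis, stood at 552, 627, 688 and 766 CPM, against a summed 122 in mesothelial and 6.52 in progenitor cells (log2 ratios 2.49 and 6.71). Ngfr, the low-affinity neurotrophin receptor, stood at 41.7, 59.9, 28.9 and 53.1 CPM against 2.37 and 5.73 (log2 ratios 4.45 and 3.17). After thinning to 5000 UMIs a UMI of Gatm was found in 78.4% of members and one of Ngfr in 17.7%, against 7.01 and 2.81% of B cell barcodes, and without thinning in 92.3 and 47.2% against 11.7 and 3.74%.

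The other leading genes encode proteins of several kinds. Chl1, a neural cell adhesion molecule of the L1 family, stood at 229.7, 219.5, 378 and 254 CPM against 43.7 in mesothelial and 16.6 in progenitor cells. Tgfb2, a ligand of the TGF-beta receptors, stood at 299, 284, 326 and 332 CPM against 82.5 and 68.9 (log2 ratios 1.91 and 2.17). Csf3, the growth factor of neutrophils, stood at 78.6, 35.9, 36.1 and 55.3 CPM against 14.0 and 1.58, and was found in 20.1% of members. In CD45+ Tom+ 1 cell gave 70.0% of its UMIs, and without that cell the level was 11.5 CPM, above the 2.63 of mesothelial cells in the same library and below the 14.0 of mesothelial cells over all libraries. Ctsc, a lysosomal protease, was at 188 CPM summed over the members against 35.2 and 50.7. Gdpd2, a glycerophosphodiester phosphodiesterase, was at 57.4 CPM against 6.99 and 7.53, Npl, an enzyme of sialic acid breakdown, at 102 against 22.4 and 12.8, Serpina3g, a serpin, at 79.6 against 8.54 and 14.3, and Kif26b, a kinesin, at 66.2 against 18.1 and 5.92.

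**Figure D2:**
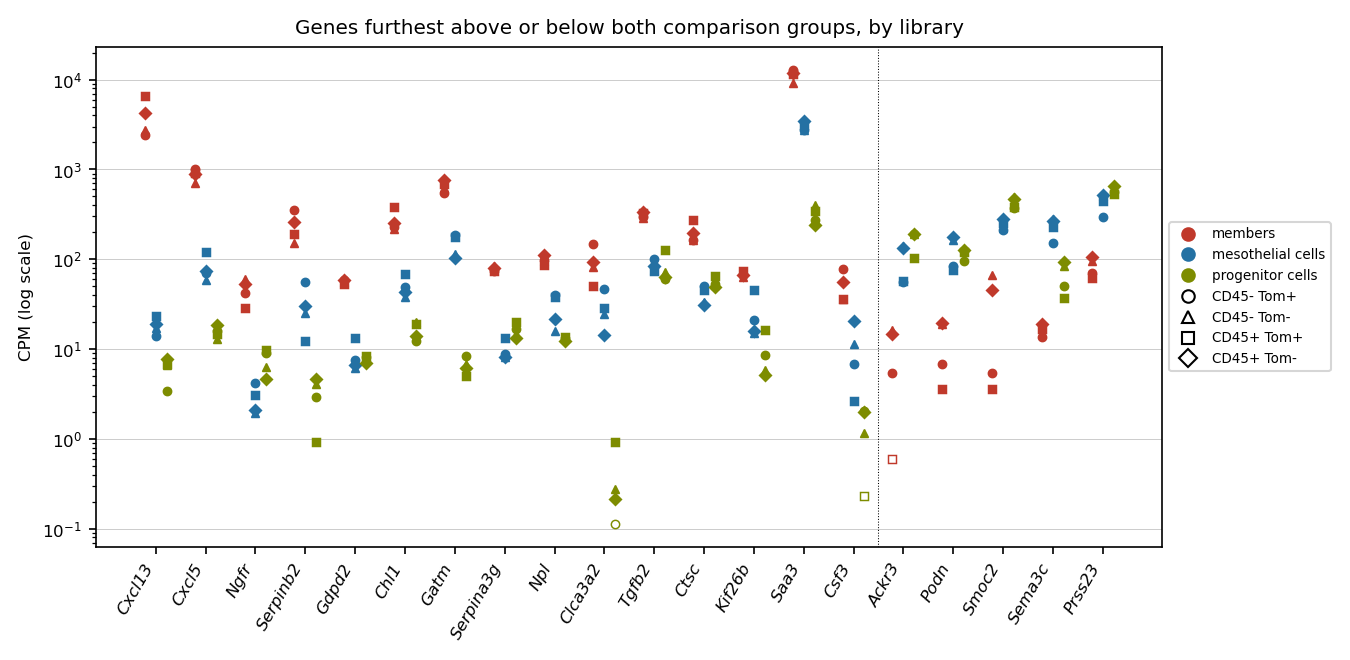
Level of the 15 genes highest against both populations and, right of the dotted line, the 5 lowest, in CPM on a log axis. There is 1 point per library for members, mesothelial cells and progenitor cells. For the 15 the members' points lie above both other groups within each library, as for Saa3 with 9184 to 12905 CPM in members against 2748 to 3427 and 241 to 403. For the 5 lowest they lie below both.

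The 5 genes that stood lowest against both were Ackr3, Podn, Smoc2, Sema3c and Prss23. Ackr3, a scavenging receptor for Cxcl12, stood at 5.47, 16.1, 0 and 14.6 CPM in members, where 0 of 830542 UMIs in CD45+ Tom+ allows up to 3.61 CPM, against 121 in mesothelial and 188 in progenitor cells (log2 ratios -3.28 and -3.91). Sema3c, a secreted semaphorin, stood at 13.7, 14.6, 16.9 and 18.9 CPM against 257 and 85.5. Podn, a small leucine-rich proteoglycan, was at 16.1 CPM against 154 and 123, Smoc2, a matricellular protein, at 43.2 against 246 and 471, and Prss23, a serine protease, at 94.2 against 477 and 632. All 5 were lower in members in 4 of 4 libraries against both.

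Promoter sequences are shown for Cxcl13, Saa3 and Serpinb2, leading genes whose upstream sequence held a C/EBP match together with high expression in the members. Each is the 250 bases before a RefSeq transcript start in GRCm38.p6, read 5′ to 3′ on the strand of the gene, with capitals marking matches to C/EBP (TTGCNNAA), the TATA box (TATAAA) or AP-1 (TGANTCA) on either strand. The Cxcl13 sequence is chr5:95956689-95956938 on the plus strand, with C/EBP at -164 and TATA at -46 from the start. The Saa3 sequence is chr7:46715677-46715926 on the minus strand, with C/EBP at -99. The Serpinb2 sequence is chr1:107511173-107511422 on the plus strand, with C/EBP at -202, AP-1 at -94 and TATA at -29.
Cxcl13: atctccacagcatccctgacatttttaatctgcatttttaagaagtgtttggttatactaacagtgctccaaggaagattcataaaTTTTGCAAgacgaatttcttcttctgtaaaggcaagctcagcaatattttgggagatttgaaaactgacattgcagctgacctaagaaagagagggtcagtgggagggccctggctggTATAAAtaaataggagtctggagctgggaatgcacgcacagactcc
Saa3: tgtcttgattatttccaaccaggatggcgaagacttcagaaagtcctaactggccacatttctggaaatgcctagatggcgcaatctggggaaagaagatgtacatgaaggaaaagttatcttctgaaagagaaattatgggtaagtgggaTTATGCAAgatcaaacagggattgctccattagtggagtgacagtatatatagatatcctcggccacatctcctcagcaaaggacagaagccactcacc
Serpinb2: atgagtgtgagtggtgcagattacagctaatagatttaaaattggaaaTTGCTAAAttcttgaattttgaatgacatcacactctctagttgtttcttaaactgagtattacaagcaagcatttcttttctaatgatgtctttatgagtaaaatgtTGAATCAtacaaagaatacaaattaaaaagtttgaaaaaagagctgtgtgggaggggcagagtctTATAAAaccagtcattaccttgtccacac

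Promoters were examined for 12 of the 15 leading genes. A C/EBP match lay in 4 of these 12 (Cxcl13, Serpinb2, Gdpd2 and Saa3) against 10.8% of all 27025 genes with an entry, and TATA in 4 of 12 (Cxcl13, Serpinb2, Gdpd2 and Tgfb2) against 14.3%. AP-1 lay in 1 of 12 (Serpinb2) against 7.82% and NF-kappaB in 1 of 12 (Serpina3g) against 8.23%. Cxcl13 and Serpinb2, in both the C/EBP and the TATA count, are genes of the rule. Their place among the leading genes is a description of the choice. A match is a description of letters in the window, and binding was not measured.

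Mesothelial genes were mostly lower in members than in mesothelial cells and mostly higher than in progenitor cells. Of the 14 compared genes of the mesothelial list that did not define the mesothelial cells, 12 were lower in members and 0 higher, with a median log2 ratio of -3.33 beside -0.07 over all genes. Over all genes 6.43% were lower and 3.31% higher. Against progenitor cells 5 of 7 were higher (Wt1, Krt19, Rspo1, Slpi and Aldh1a2) and 0 lower, with a median of 1.35 beside 0.03. In this comparison 5.7% of all genes were higher and 8.37% lower. Wt1 stood at 395, 404, 394 and 462 CPM in members against 504 in mesothelial and 167 in progenitor cells. Aldh1a2, the enzyme that makes retinoic acid, stood at 191, 196, 219 and 220.5 CPM against 204 and 22.2 (log2 ratios 0.03 and 3.23). Aldh1a2 was thus at the mesothelial level in the members, and Wt1 slightly below it in 4 of 4 libraries. Krt19, an epithelial keratin, was at 43.7 CPM against 504 and 1.77, Slpi, a secreted protease inhibitor, at 975 against 2775 and 21.0, and Igfbp5, an IGF-binding protein outside the list, at 83.1 against 2838 and 80.4.

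The genes that define the mesothelial cells fell into the same order, in part by construction. Msln, the mesothelial surface protein mesothelin, stood at 5.47, 13.7, 4.82 and 6.38 CPM in members against 428 in mesothelial cells, and Upk3b, a uroplakin, at 45.8, 47.1, 32.5 and 35.5 against 743. Nkain4 and Lrrn4 were closer to the mesothelial level. Nkain4, a membrane protein of the Na+/K+ ATPase-interacting family, was at 190.0, 207, 175 and 182 CPM against 503. Lrrn4, a leucine-rich neuronal protein, was at 105, 105, 136 and 112 CPM against 465. Progenitor cells held 5.13 CPM of Nkain4 and 0.655 of Lrrn4. Members were thus low for Msln and intermediate for Nkain4 and Lrrn4 in every library.

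Fibroblast genes were mostly within 2-fold of mesothelial cells and mostly lower than in progenitor cells. The whole fibroblast and progenitor list summed to 21733 to 26682 CPM by library in members. It summed to 23734 to 25932 in mesothelial and 49745 to 55384 in progenitor cells. Of the 18 compared genes of the fibroblast and progenitor list outside the gate of the progenitor cells, 4 were higher in members than in mesothelial cells (Pdgfrb, Ly6c1, Lum and Col15a1) and 2 lower (Dpp4 and Ly6a), with a median log2 ratio of 0.53. Over all genes 3.31% were higher and 6.43% lower. Against progenitor cells 0 of 20 were higher and 14 lower (Pdgfrb, Dpp4, Pi16, Ly6a, Ly6c1, Thy1, Lum, Col15a1, Fbn1, Fgf10, F3, Gsn, Mfap5 and Clec3b), with a median of -1.40. In this comparison 5.7% of all genes were higher and 8.37% lower. Pdgfra stood at 531, 594, 591 and 662 CPM in members against 219 and 491 (log2 ratios 1.49 and 0.32). Col15a1, a basement membrane collagen, stood at 170.2, 266, 161 and 267 CPM against 30.6 in mesothelial and 605 in progenitor cells. The members therefore carried Pdgfra at a level above that of mesothelial cells and were below progenitor cells for most other fibroblast genes.

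Matrix and adipogenic genes followed the same pattern. Of the basement membrane and matrix list 5 of 17 genes were higher and 1 lower than in mesothelial cells (beside 3.31% higher and 6.43% lower over all genes), and 1 of 21 higher and 13 lower than in progenitor cells (beside 5.7 and 8.37%). Fn1, fibronectin, stood at 2813, 3202, 3345 and 3353 CPM against 822 and 2278 (log2 ratios 1.97 and 0.50). Of the adipogenic list 2 of 8 were higher and 0 lower than in mesothelial cells, and 0 of 10 higher and 8 lower than in progenitor cells, beside the same shares. Lpl, lipoprotein lipase, stood at 332, 380.1, 301 and 447 CPM against 78.9 and 2879.6 (log2 ratios 2.33 and -2.86).

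Mesothelial and fibroblast genes were often found in the same barcode, in members and in mesothelial cells. After each barcode was thinned to 5000 UMIs, which left out 2 shallower members, 159 of 282 (56.4%, 50.4 to 62.3%) held both a UMI of Pdgfra and a UMI of at least 1 of the 5 mesothelial genes, 91 held Pdgfra alone, 24 a mesothelial gene alone and 8 neither. The share with both was 67.5, 53.5, 50.0 and 56.2% by library. It was 43.6% in mesothelial cells, 4.55% in progenitor cells and 1.20% in B cell barcodes, and the gates of both stromal populations fix part of their shares. Among the members the product of the separate shares was 57.5%; the observed share lay close to that product. Pdgfra and Wt1 were found together in 207 members (73.4%, 67.8 to 78.5%), against 37.8% of mesothelial cells, 41.9% of progenitor cells and 2.61% of B cell barcodes.

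Genes of the lymphoid stroma were present in part. Of the lymphoid niche list 3 of 11 compared genes were higher and 0 lower than in mesothelial cells, and 2 of 11 higher and 3 lower than in progenitor cells, beside 3.31 and 6.43% of all genes and 5.7 and 8.37% respectively. Enpp2, autotaxin, which guides lymphocytes into nodes by making lysophosphatidic acid, stood at 992, 1065, 976 and 1013 CPM against 594 in mesothelial and 122 in progenitor cells (log2 ratios 0.79 and 3.07). Vcam1, the adhesion molecule for integrin alpha 4, stood at 469.6, 271, 302 and 315 CPM against 115 and 304 (log2 ratios 1.49 and 0.08). Il33, an alarmin cytokine that activates group 2 innate lymphoid cells, stood at 167, 174, 132 and 176 CPM against 77.5 and 95.2. Enpp2 and Il33 were above both populations in every library and Vcam1 was near the progenitor level.

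Cxcl12, the ligand of Cxcr4, stood at 297, 546, 225 and 643 CPM against 62.1 in mesothelial and 1180.2 in progenitor cells, and was lower in both libraries labelled Tom+. The chemokines of T cell zones were scarce: Ccl19 gave 3, 33, 1 and 57 UMIs (9.43 CPM summed), and Ccl21a 8, 0, 2 and 4 UMIs (1.40 CPM). Madcam1, an addressin also carried by marginal reticular cells of lymph nodes, was at 2.05, 1.82, 6.02 and 6.38 CPM, Il7 at 8.32 and Tnfsf11, RANKL, at 1.10. Cr2, a complement receptor of follicular dendritic cells, had 0 UMIs and Fcer2a 1 UMI in the 284 members. Of the lymphotoxin and TNF pathway 1 of 14 genes (Tnfaip2, log2 ratio 1.77) was higher and 0 lower than in mesothelial cells and 0 of 14 were past 2-fold against progenitor cells, and Ltbr, the lymphotoxin beta receptor, was at 51.4 CPM against 37.9 and 52.9. These counts stand beside 3.31% of all genes higher and 6.43% lower against mesothelial cells, and 5.7 and 8.37% against progenitor cells.

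Chemokines outside the rule stood mostly above their level in mesothelial cells. Leaving out Cxcl13 and Cxcl5, 7 of 9 compared chemokines were higher than in mesothelial cells (Cxcl2, Cxcl10, Cxcl12, Cxcl14, Ccl2, Ccl7 and Ccl11) and 0 lower, with a median log2 ratio of 1.41. Over all genes 3.31% were higher and 6.43% lower. Against progenitor cells 4 of 11 were higher (Cxcl2, Cxcl10, Cxcl16 and Ccl2) and 4 lower (Cxcl12, Cxcl14, Ccl11 and Cx3cl1), beside 5.7 and 8.37% of all genes. Ccl2, which draws monocytes through Ccr2, stood at 2191, 1825, 1712 and 1565 CPM against 659 and 587 (log2 ratios 1.41 and 1.58). Ccl7, another ligand of Ccr2, stood at 664, 552, 713 and 698 CPM against 199 and 457. Cxcl10, an interferon-induced ligand of Cxcr3, stood at 365, 362, 181 and 349.6 CPM against 162 and 49.6, and Cxcl2, a neutrophil chemokine, at 252, 186, 176 and 226 against 77.0 and 93.7. Ccl2 and Ccl7 thus shared the receptor Ccr2 and were above both populations, Ccl7 by less than 2-fold against progenitor cells.

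Of the acute phase and epithelial defence list 4 of 15 genes were higher and 3 lower against each population, beside 3.31 and 6.43% of all genes against mesothelial and 5.7 and 8.37% against progenitor cells, which also stand beside the lists that follow. Hp, haptoglobin, stood at 185, 255, 167 and 292 CPM against 19.6 in mesothelial and 166 in progenitor cells, and Lcn2, the siderophore-binding lipocalin, at 138 summed against 213 and 46.8. Of the antigen presentation list 0 of 11 were higher and 1 lower than in mesothelial cells and 6 higher and 0 lower than in progenitor cells. The class II genes Cd74 and H2-Ab1 were at 333 and 124 CPM against 441 and 118 in mesothelial and 50.7 and 26.5 in progenitor cells. Of the retinoid list 1 of 9 was higher and 1 lower, then 2 of 9 higher and 2 lower, and of the dissociation stress list 0 of 16 were higher and 1 lower, then 1 higher and 3 lower.

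Cdkn2a was high in the members of every library, and no part of the rule used it. It lies at chr4:89274471-89294653 on the minus strand of mm10 (GENCODE M21), and its p16Ink4a and p19Arf transcripts share their last exon, so 3′ UMIs cannot separate them. Its level was 34.9, 36.5, 49.4 and 45.6 CPM in members, 19.5, 6.59, 24.6 and 7.06 in mesothelial cells, 7.92, 5.51, 7.82 and 5.39 in progenitor cells, and 1.87 CPM summed over B cell barcodes. The lowest library of the members was above the highest of either population. Summed, it was 41.3 CPM (37.4 to 45.5) against 9.49 and 5.66, with log2 ratios of 2.12 (1.91 to 2.33) and 2.87 (2.67 to 3.07). After thinning to 5000 UMIs, 37 of 282 members (13.1%, 9.41 to 17.6%) held a UMI of Cdkn2a against 3.60% of mesothelial cells, 2.10% of progenitor cells and 0.200% of B cell barcodes, and without thinning 43.3, 12.0, 6.52 and 1.49%. Over the 82 members whose barcode was listed in their own library alone the level was 29.8 CPM, with 45.3, 22.3, 37.4 and 11.1 CPM by library against 10.4, 2.92, 21.4 and 1.52 in such mesothelial cells and 7.93, 2.90, 6.77 and 3.56 in such progenitor cells. Members were thus above both populations within each library in this subset too. Over the barcodes that another library also listed, members held 26.7, 38.5, 62.1 and 50.4 CPM by library. Such mesothelial cells held 34.9, 7.41, 30.2 and 9.38, and such progenitor cells 7.92, 6.74, 12.4 and 6.85. In CD45- Tom+ these members were thus below mesothelial cells, with overlapping intervals (16.7 to 40.5 and 26.7 to 44.8).

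Over all members, Cdkn2a was at a like level in the libraries labelled Tom+ and Tom-, while its ratios were higher over the members listed in 1 library alone. The log2 ratio of Tom+ to Tom- was -0.07 (-0.57 to 0.42) in the libraries labelled CD45- and 0.12 (-0.41 to 0.61) in those labelled CD45+. In mesothelial cells the same ratios were 1.56 (1.14 to 1.99) and 1.80 (1.31 to 2.28), and in progenitor cells 0.52 (-0.04 to 1.05) and 0.54 (-0.27 to 1.25). Over the 82 members listed in 1 library alone the ratios were 1.03 (-0.09 to 2.29) and 1.75 (0.32 to 3.39), on 29, 9, 16 and 6 UMIs of Cdkn2a in 22, 21, 14 and 25 barcodes. Over the 202 members listed elsewhere too they were -0.53 (-1.26 to 0.14) and 0.30 (-0.36 to 0.91), and the intervals of the 82 and the 202 overlapped in each pair. The 202 were the deeper barcodes, with median UMIs of 45582, 37304.5, 52338.5 and 39457 by library against 31267, 19186, 33411 and 22038 in the 82, and the part of depth in these ratios was not tested. Each ratio compares 1 library with another, and whether the ratios differ between cell groups was not tested.

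**Figure D3:**
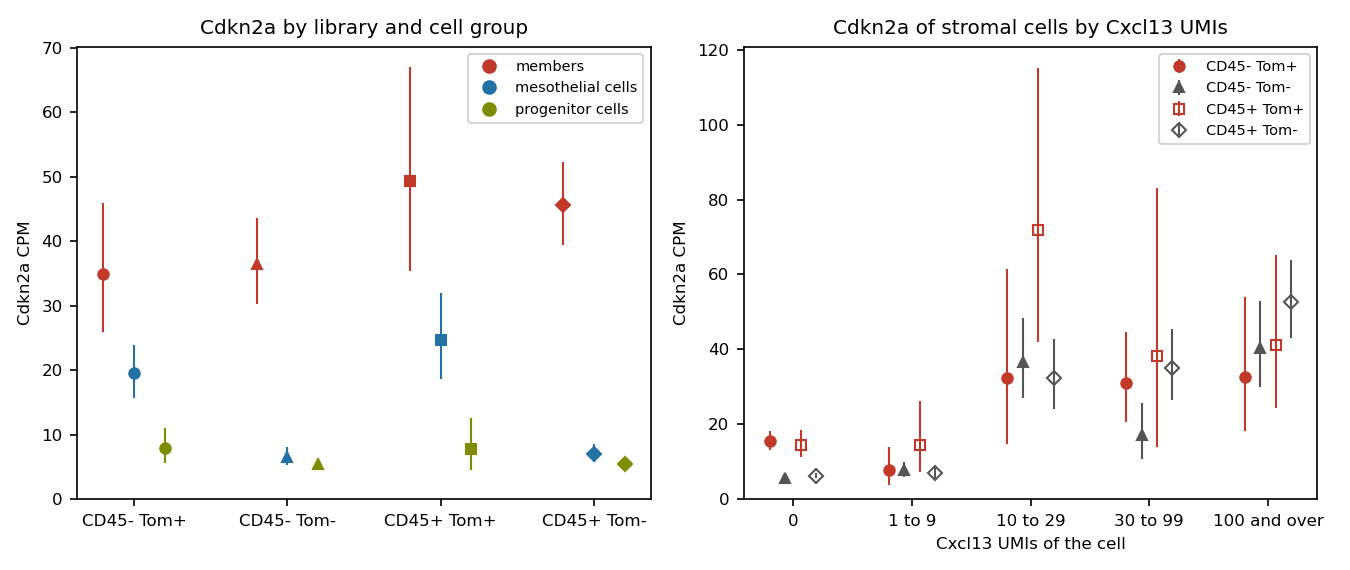
Cdkn2a in CPM for each library, with exact 95% intervals, in members, mesothelial and progenitor cells, and by the number of Cxcl13 UMIs in the wider set of Pdgfra or mesothelial gene barcodes. The members lie between 34.9 and 49.4 CPM in all 4 libraries, while mesothelial cells lie at 19.5 and 24.6 in the libraries labelled Tom+ and at 6.59 and 7.06 in those labelled Tom-.

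Cdkn2a was also read by bands of Cxcl13 in a wider set, all kept barcodes within the limits on Ptprc and Mzb1 that were members or had a UMI of Pdgfra or of 1 of the 5 mesothelial genes. It was higher in the bands from 10 UMIs of Cxcl13 than in those under it. It was 7.26 CPM in 4371 barcodes with 0 UMIs of Cxcl13, 7.65 in 725 with 1 to 9, 36.8 in 106 with 10 to 29, 28.3 in 119 with 30 to 99, and 45.4 in 108 with 100 or more, and the 3 upper bands hold barcodes that lack the 4 further genes as well as the members. The median depth rose along the bands too, from 23308 to 37304.5 UMIs, and its part in this order was not tested. Barcodes with 0 UMIs of Cxcl13 carried 15.6 and 14.6 CPM of Cdkn2a in the libraries labelled Tom+ and 5.72 and 6.26 in those labelled Tom-.

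Other senescence genes did not stand above both populations as a group. Of the senescence list 2 of 13 compared genes were higher than in mesothelial cells (Cdkn2a and Cd44) and 1 lower, and 3 of 13 higher than in progenitor cells (Cdkn2a, Cd44 and Plaur) and 2 lower. The medians were -0.02 and 0.61, beside -0.07 and 0.03 over all genes. Cd44, the hyaluronan receptor, was at 388 CPM against 156 and 128, and Plaur, the urokinase receptor, at 64.1 against 80.6 and 18.1. Cdkn2b, the neighbouring inhibitor p15Ink4b, stood at 23.2, 19.8, 22.9 and 18.0 CPM against 11.5 and 7.57, and Cdkn1a, the p53 target p21, at 109 summed against 147 and 143. Cdkn1c, p57, was at 12.2 CPM against 22.2 and 87.4, and Lmnb1, lamin B1, at 15.3 against 26.5 and 11.0.

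Of the senescence-associated secretory list 4 of 19 genes were higher and 4 lower than in mesothelial cells and 2 of 21 higher and 6 lower than in progenitor cells, beside 3.31 and 6.43% and 5.7 and 8.37% of all genes. Il6, its best known cytokine, stood at 34.2, 139, 84.3 and 160 CPM in members against 105 and 502, and was lower in each library labelled Tom+ than in the Tom- library of the same CD45 label. Of the cell cycle list only 3 genes and 2 genes passed the low-level limit in the respective comparisons, and Ccnd1, cyclin D1, was at 55.0 CPM against 125 and 13.2. After thinning, Top2a, a topoisomerase of dividing cells, had a UMI in 5.67% of members (3.28 to 9.05%) against 3.43% of mesothelial cells, 1.13% of progenitor cells and 4.81% of B cell barcodes, and Mki67, the proliferation marker Ki-67, in 3.90% (1.96 to 6.87%) against 3.69, 1.06 and 4.01%. The members' shares of both thus overlapped the shares in B cell barcodes.

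Members of the libraries labelled Tom+ and Tom- were compared within each CD45 label. In the libraries labelled CD45-, 25 of 5786 genes were past 2-fold higher in Tom+ (0.432%) and 72 lower (1.24%), and in those labelled CD45+ 39 of 5832 higher (0.669%) and 123 lower (2.11%). In both pairs 8 of 5546 were higher (0.144%), 30 lower (0.541%) and 0 in opposite directions. These counts were larger after thinning, with 274 and 474 higher and 393 and 611 lower, and without members whose barcode another library listed, with 194 and 212 higher and 350 and 318 lower. Thinning left 40, 99, 22 and 121 members of 5000 UMIs each. The limit of 20 CPM then stood for only a few UMIs in the libraries labelled Tom+. The part of counting error in these larger counts was not tested. The reporter followed the label: tdTomato stood at 485, 9.43, 566 and 12.1 CPM in members, and was found in 36 of 41, 18 of 99, 15 of 22 and 33 of 122. In the libraries labelled Tom+ it was lower in members than in mesothelial cells (963 and 954 CPM) and progenitor cells (592 and 698 CPM). After thinning, tdTomato had a UMI in 47.5, 6.06, 50.0 and 9.09% of members against 75.7, 16.8, 55.2 and 11.0% of B cell barcodes. The part of free tdTomato RNA was not tested.

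The 8 genes higher in both pairs were tdTomato, 6 genes of antibody-secreting cells (Igkc, Ighm, Igkv14-126, Iglv1, Jchain and Mzb1) and Zdbf2, named after their values were seen. Igkc, the kappa light chain constant region, stood at 9326, 470.1, 5374 and 445 CPM in members, at 9715, 550.3, 7276 and 508 in mesothelial cells, and at 12987, 667, 7758 and 555 in progenitor cells. The order of the libraries was thus the same in all 3 stromal groups. B cell barcodes held 60197, 5343, 45108 and 4929 CPM. The 5 highest other genes at 50 CPM or more were Calca, Rbbp8, Pom121, Chka and Mid1ip1, led by Calca, the calcitonin gene, with 148, 51.7, 104 and 70.4 CPM (log2 ratios 1.51 and 0.56, or 0.26 and 0.22 over the members listed in 1 library alone), and in at least 1 pair each of the 5 was under 2-fold.

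Among the 30 genes lower in both pairs, the 5 lowest at 50 CPM or more were Sfrp1, Clec3b, Sparcl1, Gpx3 and Svep1. Sfrp1, a secreted Wnt antagonist, stood at 20.5, 253, 1.20 and 220.0 CPM in members, with log2 ratios of -3.63 and, on 1 UMI, -7.51 (-12.82 to -5.03). Clec3b, tetranectin, stood at 8.20, 110.4, 9.63 and 114 CPM (log2 ratios -3.75 and -3.57), and Sparcl1, a matricellular protein, at 12.99, 117, 1.20 and 143 CPM. In CD45- Tom+ 1 cell gave 94.7% of the Sparcl1 UMIs, and without it the level was 0.70 CPM. For all 3 both libraries labelled Tom+ were below both labelled Tom-. Gpx3, the secreted glutathione peroxidase, stood at 41.7, 211, 47.0 and 225 CPM, and Svep1, an extracellular adhesion protein, at 31.4, 141, 28.9 and 129.

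Levels of these genes in B cell barcodes also differed between libraries, to a lesser degree. B cell barcodes held 17.9, 125, 37.3 and 143 CPM of Clec3b, 44.5, 162, 109 and 167 of Gpx3, and 33.5, 30.6, 159 and 69.9 of Sfrp1. The order by tdTomato label was thus the same in B cell barcodes for Clec3b and Gpx3 and not for Sfrp1. Progenitor cells carried 595 CPM of Sfrp1, 1202 of Clec3b and 1210.4 of Sparcl1. Over the members listed in 1 library alone the log2 ratios were -3.56 and -2.43 for Clec3b, -2.47 and -0.97 for Gpx3, -2.40 and -1.22 for Svep1 and -6.62 and -4.52 for Sparcl1, while for Sfrp1 the ratio in the CD45- pair was -0.36. The part of free RNA, and of progenitor-like barcodes among the members, was not tested.

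The marker genes of the members did not move one way by tdTomato label, and those of the rule are a description. The log2 ratios of Tom+ to Tom- were 0.49 (0.46 to 0.52) and -0.04 (-0.07 to -0.01) for Saa3, 0.52 and 0.04 for Cxcl5, -0.18 and 0.61 for Cxcl13, and 0.85 and -0.90 for Clca3a2, the last 2 in opposite directions. Serpinb2 had 1.22 (1.04 to 1.40) and -0.42 (-0.66 to -0.18), and Csf3 1.13 (0.75 to 1.51) and -0.62 (-1.21 to -0.06), so both were past 2-fold higher in Tom+ in the CD45- pair and on the other side of 0, by less than 2-fold, in the CD45+ pair. Of 6 compared genes of the rule 2 were higher in the first pair (Serpinb2 and Mzb1) and 1 in the second (Mzb1), beside 0.432 and 0.669% of all genes higher. Of the mesothelial list 0 of 13 and 0 of 12 genes were higher and 0 and 1 lower, of the senescence list 0 of 12 past 2-fold in each pair, and of the lymphoid niche list 0 of 11 higher and 1 lower in each. Of the fibroblast and progenitor list 0 of 18 were higher in each pair and 5 and 6 were lower, beside 1.24 and 2.11% of all genes lower. Cxcl12 had log2 ratios of -0.88 and -1.51.

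**Figure D4:**
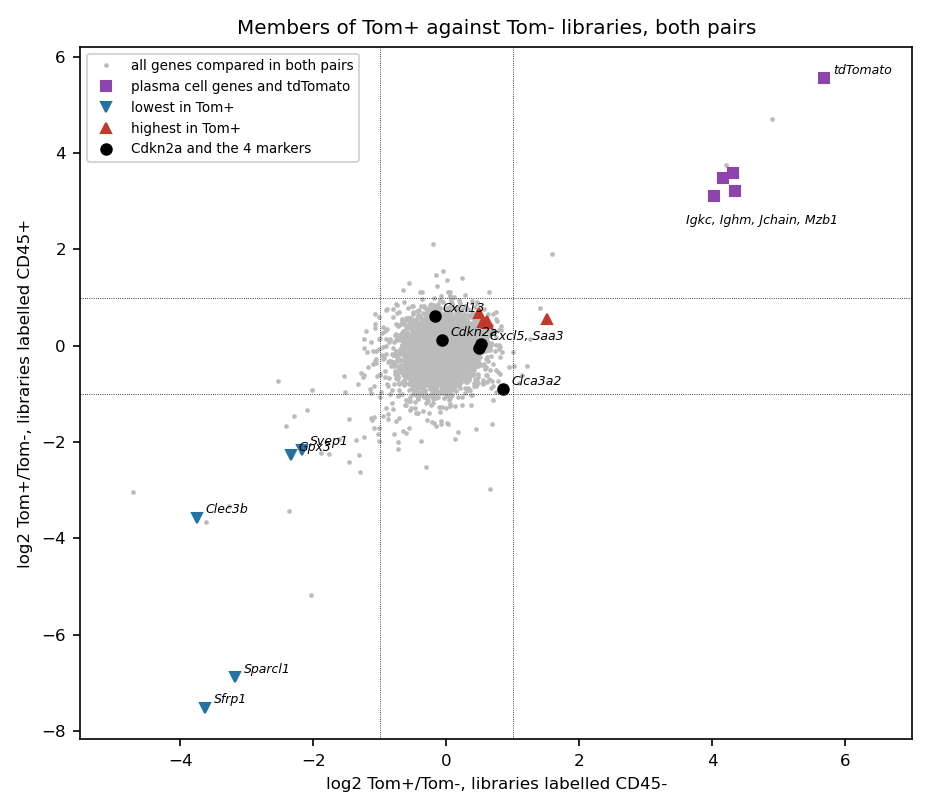
For each gene compared in both pairs, the log2 ratio of Tom+ to Tom- members in the libraries labelled CD45- (horizontal) and CD45+ (vertical), with lines at 2-fold. The 8 genes past 2-fold upward in both are tdTomato, antibody genes and Zdbf2, the 30 past 2-fold downward include Sfrp1, Clec3b and Sparcl1, and Cdkn2a lies near 0 in both at -0.07 and 0.12 over all members (1.03 and 1.75 over those listed in 1 library alone).

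Markers of most other cell types were low in the members, and the lists of plasma, mural and follicular dendritic cells had higher sums. Summed over the list, T cell genes stood at 3.61 to 13.7 CPM by library (104 to 162 in all kept barcodes), B cell genes at 4.10 to 15.04, macrophage genes at 114 to 169.5 (3590 to 5829 in all kept barcodes), neutrophil genes at 10.3 to 88.1, endothelial genes at 5.78 to 69.0, lymphatic endothelial genes at 2.41 to 10.9 and adipocyte genes at 0 to 3.34, with Lep at 0. Plasma cell genes stood at 1122 to 17934 CPM and were highest in the libraries labelled Tom+. The same list stood at 1314 to 17342 CPM in mesothelial cells, 1372 to 25504 in progenitor cells and 14906 to 263132 in all kept barcodes. The upper ends for neutrophil and endothelial genes came from single cells, with 1 member giving 86.7% of the S100a8 UMIs in CD45+ Tom- and 1 giving 98.3% of the Cldn5 UMIs in CD45- Tom+. Mast cell genes stood at 9.34 to 56.7 CPM (Ms4a2 at 0) and epithelial genes at 29.4 to 46.5 (Cldn4, Krt5 and Krt14 at 0). Follicular dendritic cell genes, summed over 4 genes without Cxcl13, stood at 1454 to 1934 CPM, against 1592 to 2179 in mesothelial and 346 to 464 in progenitor cells. Of the 4, 2 were under 5 CPM in members (Cr2 at 0). Mural and smooth muscle genes summed to 303 to 348 CPM, against 117 to 334 in mesothelial cells, 184 to 542 in progenitor cells and 64.4 to 179 in all kept barcodes. Of this list 2 of 2 compared genes were higher than in mesothelial cells, and 2 of 3 higher and 1 lower than in progenitor cells, beside 3.31% of all genes higher in the first comparison and 5.7 and 8.37% higher and lower in the second. The higher genes were Acta2, smooth muscle actin, at 127, 118, 148 and 157 CPM against 49.2 in mesothelial and 32.1 in progenitor cells, and Des, desmin, at 116 CPM summed against 42.4 and 51.2, while Myh11 was at 16.1 CPM, Rgs5 at 2.61 and Cnn1 at 1.10.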

How the data were processed

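Cells of the stromal vascular fraction were captured with the 10x Genomics Chromium Single Cell 3′ kit v3.1, and the authors made the deposited UMI counts with Cell Ranger 3.0.2 against mm10 with a tdTomato row added. The counts are whole molecules per gene and barcode, not scaled by gene length or depth, and only 3′ ends are counted, so levels are compared between cells and not between genes. The 4 libraries hold 31054 rows each, of which 35 symbols stand on several rows and were separated by Ensembl ID where printed.

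Counts were summed over the members of each library and given per 1000000 UMIs (CPM), with exact Poisson intervals for levels, exact Clopper-Pearson intervals for shares and conditional exact intervals for ratios of 2 counts, at 95%. UMIs remove most PCR copies, and these intervals and the limit of 3 counts for a count of 0 cover counting error only. Shares of barcodes with a UMI were also taken after thinning each to 5000 UMIs (seed 1). Doublets were scored with the Scrublet of scanpy 1.11.5 per library and were left in except in an alternative. Named genes were those of fixed lists, the 15 highest and 5 lowest against both populations, and the 5 highest and 5 lowest in both Tom pairs, at 50 CPM or more, by the smaller of the 2 log2 ratios and without immunoglobulin, mitochondrial, ribosomal, haemoglobin, tdTomato and predicted genes. B cell barcodes had at least 2 UMIs each of Ms4a1 and Cd79a and under 10 of Mzb1. The members, lists and comparisons were chosen with earlier results of these data known, so nothing here is an independent test. Alternatives varied the limits of the rule, the quality limits, the low-level limit, thinning, scaling (TMM factors of edgeR 4.0.16 in R 4.3.3), the comparison populations, and each library left out. The scripts ran in Python 3.11.15 with numpy 2.4.6, scipy 1.17.1, pandas 2.3.3 and matplotlib 3.10.9, and were checked on simulated data. A promoter and a marker list are not reported here.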

Additional observations from a re-analysis of the deposited data

How the results depend on the processing

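No paired analysis was possible because each group is 1 library. No log2 ratio of a named gene past 2-fold turned its direction under the alternatives run, but the order of the member shares in the CD45+ pair did, at 0.8005% for Tom+ and 0.754% for Tom- without shared barcodes. Of the alternative values for the main results 162 stayed within their error or 1.5 times the count, and 50 moved. With Ptprc and Mzb1 both at 0 the members were 0.0965 and 1.81% of kept barcodes for Tom+ and Tom- in the CD45- pair, and 0.404 and 1.78% in the CD45+ pair, so both shares for Tom+ fell by over 1.5 times. In the 2 libraries labelled Tom- the share was 1.63 and 1.85% with at least 30 UMIs of Cxcl13 and 1.86 and 1.97% with at least 2 of the 4 further genes, and in CD45+ Tom- 3.03% with none required. Chosen after seeing the data, leaving out barcodes that another library also listed gave 0.635, 0.882 and 0.754% in CD45- Tom+, CD45- Tom- and CD45+ Tom-, and dropping the limit on Mzb1, or barcodes deeper in another library, moved none of the main results.

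Cdkn2a in members was 36.9 CPM with no further gene required, 46.1 with at least 2, and 29.8 without shared barcodes. Its log2 ratio to mesothelial cells was 1.48 with looser quality limits (500 genes, 20% mitochondrial UMIs), 2.46 with Ptprc and Mzb1 at 0, 2.46 with stricter comparison gates, 1.65 without shared barcodes, and 1.76 to 2.40 with 1 library left out. To progenitor cells it was 3.09 as the mean of each cell's CPM and 2.40 without shared barcodes. Its log2 ratios of Tom+ to Tom- members, under 2-fold over all members, were 1.03 and 1.75 without shared barcodes, and in the CD45+ pair -0.55 with Ptprc and Mzb1 at 0, while the other alternatives kept them between -0.55 and 0.51.

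Gene counts rested on the low-level limit. At 5 and 50 CPM, genes higher than in mesothelial cells were 377 and 130 and lower 800 and 206, and against progenitor cells 682 and 167, and 937 and 311. In the Tom pair labelled CD45- genes higher were 134 and 12 (54 with the looser quality limits, 274 thinned, 43 by cell means, 194 without shared barcodes) and lower 404 and 26 (393 thinned, 350 without shared barcodes). In the pair labelled CD45+ higher were 211 and 9 (69 with at least 30 UMIs of Cxcl13, 474 thinned, 212 without shared barcodes) and lower 571 and 39 (611 thinned, 318 without shared barcodes). Depth also limits the Tom pairs, where the members of CD45+ Tom+ are 22 barcodes with 830542 UMIs in all.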

Other observations

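Further genes stood higher in members than in both populations in 4 of 4 libraries, and those named here were chosen after their values were seen. They were picked one by one and stand for no gene group, and 1.11% of all genes compared were higher against both populations. Il1r1, the signalling receptor of interleukin 1, was at 474 CPM summed over the members against 112 in mesothelial and 209 in progenitor cells (log2 ratios 2.08 and 1.18), the decoy receptor Il1r2 at 35.3 against 5.85 and 10.1, and Il1rap at 35.8 against 17.2 and 10.4. Il4ra, the receptor chain shared by interleukins 4 and 13, was at 134 CPM against 37.9 and 48.7, and Cd14, the co-receptor for lipopolysaccharide, at 110.5 against 45.3 and 12.1. Lif, a cytokine of the interleukin 6 family, was at 62.9 CPM against 9.65 and 22.4, and Hdc, the enzyme that makes histamine, at 133 against 51.3 and 6.34. Cyp7b1, an oxysterol hydroxylase whose products guide B cells through Gpr183, was at 164 CPM against 47.3 and 33.4. Sox9, a transcription factor of cartilage and other progenitors, was at 131 CPM against 22.9 and 45.1, and Cdh2, N-cadherin, at 122 against 44.7 and 6.08.

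The members were not uniform for Sfrp1. A UMI of Sfrp1 was found in 6 of 41, 22 of 99, 1 of 22 and 27 of 122 members in the order of libraries used above, and 35 of these 56 also held Sparcl1. The 56 members carried 6529.6 CPM of Saa3 against 12168 in the other members, 345 CPM of Clec3b against 25.8, 1465 CPM of Cxcl12 against 295, and 82.0 CPM of Nkain4 against 218. Summed over the libraries, Cdkn2a was at 43.8 and 40.7 CPM and Cxcl13 at 3649 and 3713 CPM in the same 2 sets. The order differed by library. Cdkn2a was at 57.5, 18.4, 53.8 and 58.6 CPM with Sfrp1 and at 30.7, 41.5, 49.0 and 41.8 without. Cxcl13 was at 1593, 2555, 8392 and 4650 CPM with it and at 2590, 2808, 6419 and 4190 without. The CD45+ Tom+ values with Sfrp1 rest on 1 member. This split was made on a measured gene after the values were seen and is a description with no test.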
